A study of Mus musculus with 8 samples.

Results

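The replication-dependent histone cluster genes are the protein-coding genes whose symbols start with Hist1h, Hist2h, Hist3h or Hist4h. Matching the deposited identifiers to the GENCODE M21 annotation found 67 of them among 55487 rows of the count table. There were 54 Hist1 genes on chromosome 13, 10 Hist2 genes on chromosome 3, 2 Hist3 genes on chromosome 11 and 1 Hist4 gene on chromosome 6. By protein they comprised 6 genes for H1, 18 for H2A, 18 for H2B, 12 for H3 and 13 for H4.

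RNA was sequenced from 8 subcutaneous Lewis lung carcinoma (LLC) tumors, a transplantable mouse lung cancer line, grown in C57BL/6J mice and taken at day 12. In 4 tumors the injected cells were wild-type, and in the other 4 they were Ago2 knock-out (ΔAgo2), made with a lentiviral CRISPR guide. The ΔAgo2 line is a single-cell clone, so what the clone carries and what the knock-out does cannot be told apart, and the mouse's own cells in each tumor keep Ago2. Libraries were made from total RNA with a stranded mRNA kit that captures poly(A) tails, all with the batch label 1.

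Replication-dependent histone genes supply the proteins that package newly copied DNA, and cells transcribe them mainly in S phase. Their mRNAs are the animal mRNAs that end without a poly(A) tail: the 3′ end is cut just after a short stem-loop, which the stem-loop binding protein SLBP holds through processing, translation and decay. Some of these genes can also make longer, polyadenylated transcripts, a form known from differentiated cells and from many tumor lines, so a library selected for poly(A) tails need not capture both forms alike.

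The stem-loops are shown because they mark the mRNA end on which the capture of these transcripts depends. A search was made within 200 bases after the stop codon for a 16-base element with a 6-base stem and a 4-base loop. Some letters were preset: GGNNNT, the loop TNTN, then ANNNCC, with N any base. The stem had to pair, with G-T pairs allowed. The preset letters are therefore shared by all hits through the search itself. It found such an element in 46 of the 52 members with an annotated 3′UTR (88.5%). The same search found one in 8 of 21017 other protein-coding genes with an annotated 3′UTR (0.038%). The most frequent forms are given below as DNA, 5′ to 3′ on the gene's strand, from GENCODE M21 transcripts on GRCm38 (mm10), with the stem in capitals and the loop in lower case.
Hist1h1c and 25 other members: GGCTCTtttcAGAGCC
Hist1h4d and 6 other H4 members: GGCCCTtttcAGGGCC
Hist1h3c and 5 other members: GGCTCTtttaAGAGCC
Hist1h4i and Hist2h4: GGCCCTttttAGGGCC
Hist1h4b and Hist1h4j: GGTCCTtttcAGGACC
All 5 lie in a 3′UTR, for example at chr13:23739512-23739527 in Hist1h1c (plus strand), chr13:23581950-23581965 in Hist1h4d (plus), chr13:23745047-23745062 in Hist1h3c (minus), chr13:22040966-22040981 in Hist1h4i (minus) and chr13:23757366-23757381 in Hist1h4b (plus). The 26 members with the first form code for H1, H2A, H2B and H3, whereas stems beginning GGCCCT or GGTCCT were found only in H4 genes among the 46. The stem-loop began 22 to 59 bases after the stop codon.

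The annotated 3′ ends differed among members. In 23 members the transcript ended within 100 bases of the stem-loop, in 23 it ran further, in 15 no 3′UTR was annotated, and in 6 with a 3′UTR no stem-loop was found (Hist1h1a, Hist1h2bc, Hist1h2bq, Hist1h2br, Hist2h2be and Hist2h3b). The hexamer AATAAA, the usual signal for polyadenylation, was searched for in each annotated 3′UTR, only past the stem-loop in transcripts that had one. It stood in a 3′UTR of 19 of the 52 members with an annotated 3′UTR (36.5%), and of 82.7% of other protein-coding genes with a 3′UTR. These 19 members had a median annotated exon length of 1679 bases and a median GC content of 47.1%, and the 48 members without the hexamer, 481 bases and 60.5%. The 48 include the 15 with no annotated 3′UTR and 22 whose transcript ended within 100 bases of the stem-loop. In these, little or no sequence could be searched, so the split partly follows annotated length. Other protein-coding genes had medians of 3516 bases and 48.7%. The members were split by the hexamer after their values had been seen, so this split describes the data and tests nothing.

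The members also resemble each other in sequence. In 24 members, over 50% of the 100-base stretches of the transcript were identical to a stretch in another member, and in 11 members none was. How the authors' counting treated reads that fit several genes was not given in the sources used here, so counts of single members with many shared stretches are uncertain. In the promoters (250 bases before to 50 after the start, RefSeq, GRCm38), the octamer ATTTGCAT was found on either strand in 7 of 17 H2A and 7 of 16 H2B members and in none of the H1, H3 and H4 members, against 1.97% of 27025 promoters of all genes. CCAAT stood in 85.2% of the 61 members with a promoter sequence and in 41.1% of all promoters, and TATAAA in 57.4% and 15.7%. By class, CCAAT stood in every H1, H2A, H2B and H3 promoter searched. In H4 it stood in only 3 of 12 (25.0%), below the share of all promoters.

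Depth ran from 7903288 counts in wild-type tumor 4 to 268564145 in ΔAgo2 tumor 4. A count of 0 allows up to 3 counts, and such limits cover counting error only. Levels are given as CPM, counts scaled to the TMM-adjusted library total, when libraries are compared, and TPM, which account for gene length, when genes are compared. On the CPM scale, 3 counts are 0.430 in the shallowest library and 0.0105 in the deepest. Ago2 mRNA was 130 to 195 CPM in wild-type and 118 to 355 CPM in ΔAgo2 tumors (log2 fold change 0.64 ± 0.31, SE, adjusted p = 0.205, edgeR). Small CRISPR deletions can leave the mRNA in place, so the genotype labels could not be checked from these counts. All 6 genes on a list of carcinoma cell markers had counts. Most of their level was Vim (mean 5649 of 6454 CPM in wild-type tumors), and these genes need not come from carcinoma cells alone. GC-rich genes read higher than GC-poor genes in some libraries. The log2 difference between genes of 60% and 40% GC was -0.11, 1.34, -0.30 and 1.77 in the wild-type group (tumors 1 to 4), and -0.06, -1.24, -0.49 and -0.91 in ΔAgo2 tumors 1 to 4. In bulk tumors, fewer cells of a type and less RNA per cell cannot be told apart. Each tumor came from its own mouse, so the spread between samples includes that between animals.

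Counts were found for 64 of the 67 members. The 3 members at 0 in all libraries were Hist1h2aa, Hist2h2aa1 and Hist2h3c1. Per length, a pair of genes with the hexamer led. Hist1h1c, which codes for a linker histone H1, had a mean of 276 TPM over the 8 libraries, the H2B gene Hist1h2bc 111 TPM, and the H2B gene Hist2h2be 14.95 TPM, which was below Hist1h4i (H4, no hexamer) at 19.5 TPM. Hist1h1c, Hist1h2bc and Hist2h2be together held 71.8% to 84.9% of all member counts in each library. Only 5 members reached 10 TPM (the fifth was Hist1h4h at 10.3 TPM), 47 had between 1 and 10, and 12 had less than 1. The median member stood at 2.53 TPM. The median of 11 replication-independent histone genes, most of which make polyadenylated mRNAs outside S phase as well, was 155 TPM.

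**Figure D1:**
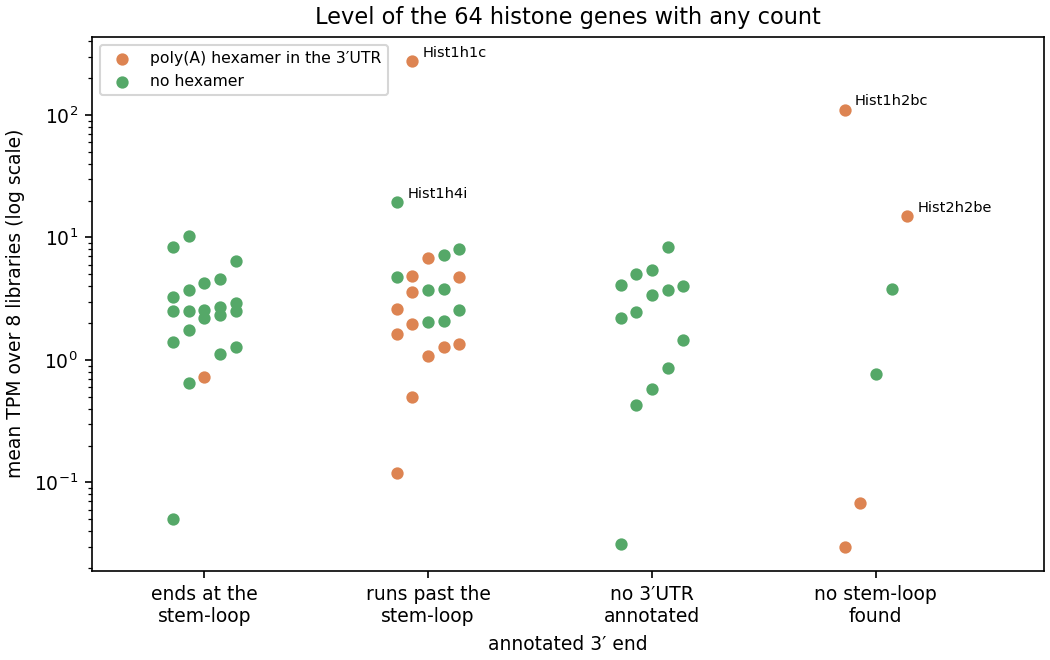
Mean TPM over the 8 libraries (log scale) for the 64 histone genes with any count, by annotated 3′ end; each point is 1 gene, orange with and green without the poly(A) signal hexamer AATAAA in its 3′UTR. Hist1h1c (276 TPM) and Hist1h2bc (111 TPM) stand above all others, and most of the remaining genes lie between 1 and 10 TPM.

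The first comparison was between libraries: whether the summed histone level differed from tumor to tumor, and whether it moved with S phase genes or with other RNAs that have no poly(A) tail. All members together summed to 203, 274, 211 and 585 CPM in the wild-type group (tumors 1 to 4), and to 333, 181, 190 and 251 CPM in ΔAgo2 tumors 1 to 4. Wild-type tumor 4 was the highest, followed by ΔAgo2 tumor 1 and wild-type tumor 2, and the remaining 5 libraries lay between 181 and 251 CPM.

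The contrast between libraries was wider for the summed level of the members without the hexamer. They summed to 18.95, 43.4, 22.2 and 122 CPM in the wild-type group (tumors 1 to 4), and to 56.5, 15.8, 23.2 and 24.8 CPM in ΔAgo2 tumors 1 to 4, a 7.74-fold range that rests on 779 to 7093 counts per library. The members with the hexamer summed to 184, 230, 189 and 463 CPM in wild-type tumors, and to 276, 165, 167 and 226 CPM in ΔAgo2 tumors, a 2.80-fold range. The same 3 libraries led in both sets. Without wild-type tumor 4 these ranges were 3.57-fold and 1.67-fold. The sum with the hexamer came mostly from Hist1h1c, Hist1h2bc and Hist2h2be, at 420 CPM in wild-type tumor 4 and 153 CPM in ΔAgo2 tumor 2. Single members with the hexamer differed in range: Hist1h1d ran from 1.41 to 12.2 CPM over the libraries, and Hist2h2be from 10.98 to 17.0 CPM.

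The sum without the hexamer was 10.3%, 18.9%, 11.8% and 26.5% of the sum with it in the wild-type group (tumors 1 to 4), and 20.4%, 9.58%, 13.9% and 10.97% in ΔAgo2 tumors 1 to 4. Wild-type tumors 2 and 4 and ΔAgo2 tumor 1 were thus above the other 5 libraries, which did not exceed 13.9%.

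The library with the highest level was also counted for single members. Of 60 members with at least 20 counts in all, 44 had their highest level in wild-type tumor 4, 8 in ΔAgo2 tumor 1 and 5 in wild-type tumor 2. Within the ΔAgo2 tumors, 52 of 60 members were highest in ΔAgo2 tumor 1, and 44 were lowest in ΔAgo2 tumor 2. Among wild-type tumors, 46 were highest in tumor 4, and 33 were lowest in tumor 1. Wild-type tumor 4 is the shallowest library. Hist1h2ah and Hist1h2ao were highest there on 2 counts each, below the 3 counts that a count of 0 allows. The same counts over all genes were not made, so these are not read as particular to the members.

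**Figure D2:**
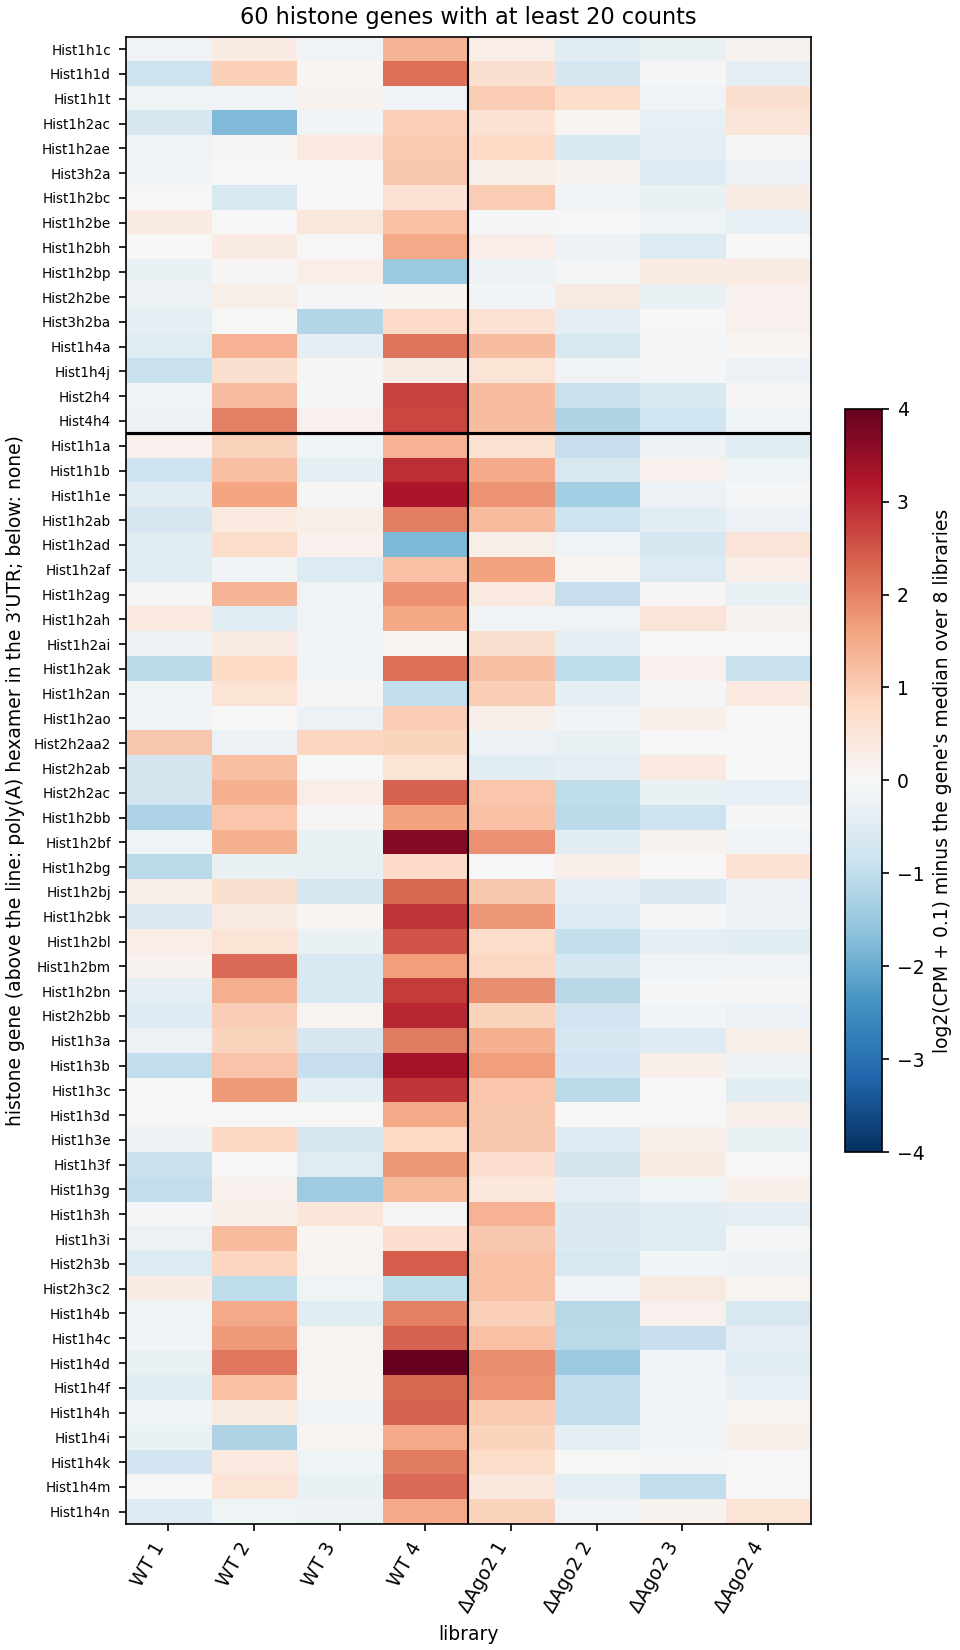
Each row is 1 of the 60 histone genes with at least 20 counts and each column 1 library; colour gives log2(CPM + 0.1) minus the gene's median over the 8 libraries, with the 16 genes that have the poly(A) hexamer above the horizontal line. Wild-type tumor 4 holds the highest level of 44 genes, and ΔAgo2 tumor 1 is red for most genes on both sides of the line.

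The summed CPM of S phase genes spread less. The 28 genes on the list, which include the MCM helicase subunits, the sliding clamp gene Pcna and the ribonucleotide reductase genes Rrm1 and Rrm2, summed to 2480 to 2630 CPM in wild-type and 2430 to 2960 CPM in ΔAgo2 tumors, a 1.22-fold range. Single genes on the list spread more: Pcna ran from 119 CPM in wild-type tumor 2 to 362 CPM in ΔAgo2 tumor 1, and Rrm1 from 66.2 CPM in wild-type tumor 4 to 169 CPM in ΔAgo2 tumor 1. Per length, the list summed to 1348 TPM in wild-type tumor 4, the lowest, and to 2436 TPM in ΔAgo2 tumor 2, the highest. Relative to the CPM sum, the members stood at 7.77%, 10.4%, 8.49% and 22.6% in the wild-type group (tumors 1 to 4), and at 11.2%, 6.75%, 6.68% and 10.3% in ΔAgo2 tumors. The order of the libraries by histone level was not their order by S phase genes: wild-type tumor 4 was sixth of 8 in the latter, although ΔAgo2 tumor 1 was first.

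Other RNAs without a poly(A) tail varied far more. A list of 13 annotated genes, of which 9 had counts, summed to 6.69, 51.1, 6.87 and 158.02 CPM in the wild-type group (tumors 1 to 4), and to 18.2, 1.33, 5.43 and 3.04 CPM in ΔAgo2 tumors. Most of this was Rn7sk, the 7SK RNA that restrains the elongation factor P-TEFb, with 143 CPM in wild-type tumor 4 and 0.868 CPM in ΔAgo2 tumor 2. The 3 highest libraries were those that led for histone genes, and ΔAgo2 tumor 2 was the lowest for both. This is a description over 8 libraries that share depth and base composition differences, and the part of poly(A) selection, RNA quality or GC content in the histone level was not tested. With the GC trend of each library removed, wild-type tumor 4 and ΔAgo2 tumor 1 had the highest sums of members without the hexamer, 104 and 56.5 CPM. The other 6 had 19.4 to 34.8 CPM, with wild-type tumor 2 at 34.8 CPM. With the length trend removed, wild-type tumors 4 and 2 were highest, at 119 and 50.5 CPM, and ΔAgo2 tumor 1 came next at 37.4 CPM. After thinning every library to the depth of the shallowest, the values were 108 CPM in wild-type tumor 4, 48.96 CPM in ΔAgo2 tumor 1 and 40.8 CPM in wild-type tumor 2.

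**Figure D3:**
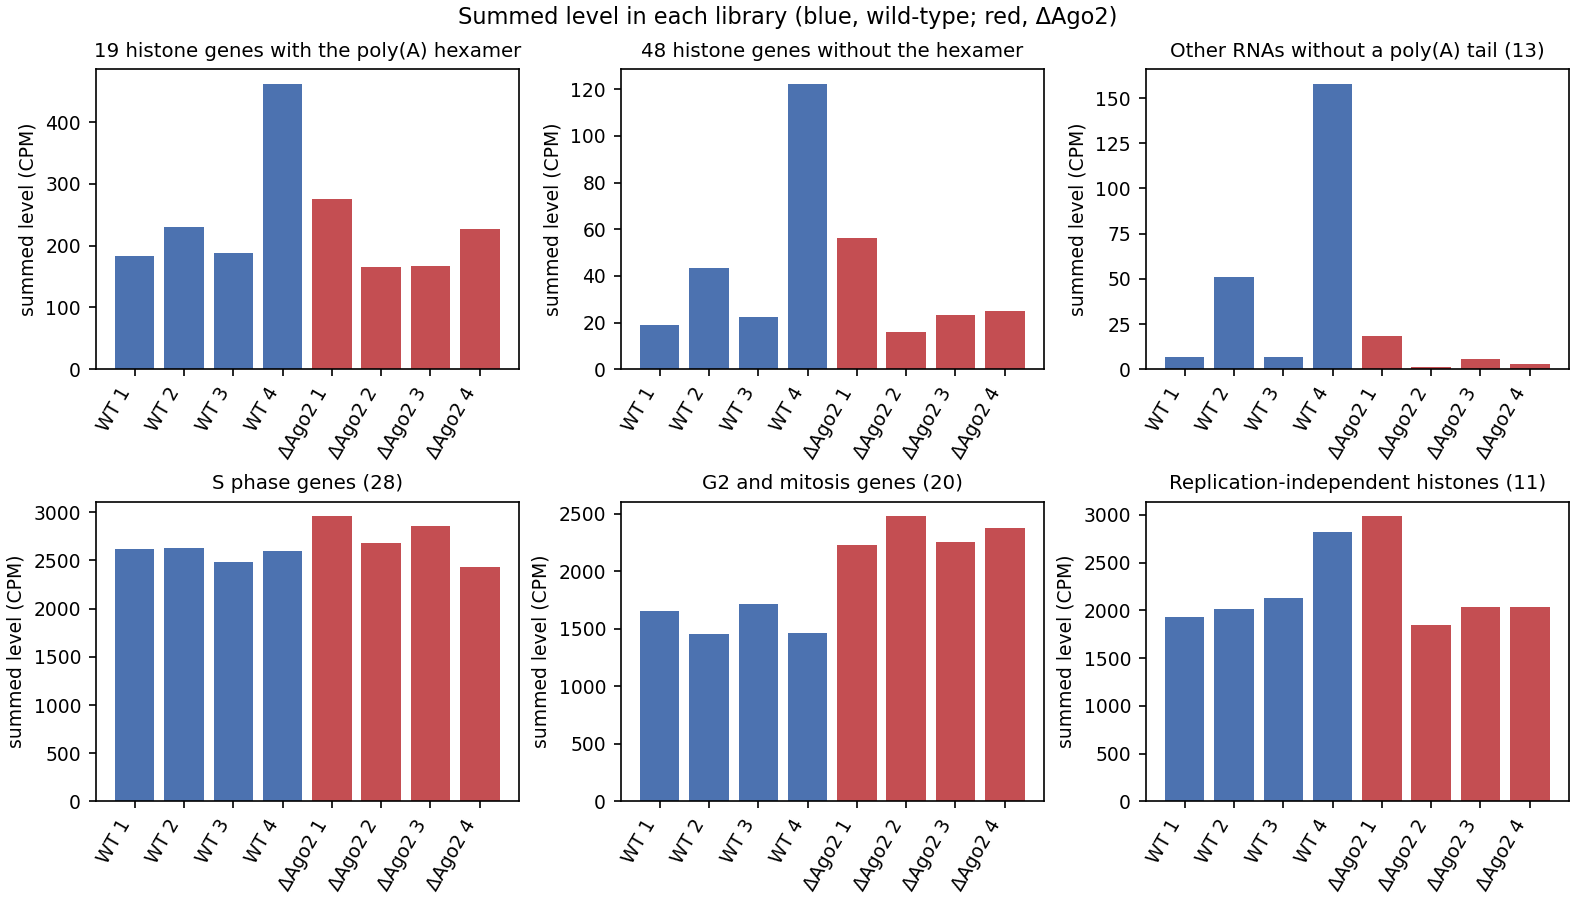
Bars give the summed CPM of 6 gene sets in each library, each panel with its own axis from 0; blue bars are wild-type and red bars ΔAgo2 tumors. Wild-type tumor 4 rises to 122 CPM for members without the hexamer and to 158.02 CPM for other RNAs without a poly(A) tail, whereas the S phase sum lies between 2430 and 2960 CPM in all 8 libraries.

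Replication-independent histones, among them the H3.3 genes H3f3a and H3f3b and the H2A variant genes H2afz and H2afx, summed to 1930 to 2820 CPM in wild-type and 1850 to 2990 CPM in ΔAgo2 tumors. Their 2 highest libraries, ΔAgo2 tumor 1 and wild-type tumor 4, were also the 2 highest for the members. Marker lists of other cell types a tumor can hold were summed in the same way. All 8 red blood cell markers had counts, with 54.5 to 203 CPM in wild-type and 39.1 to 148 CPM in ΔAgo2 tumors, and the sum was highest in wild-type tumor 4 and next in ΔAgo2 tumor 1. In wild-type tumor 4 it came mostly from Hba-a1 (103 CPM) and Hba-a2 (70.5 CPM), whereas Hbb-bs stood there at 19.3 CPM, below 6 of the other 7 libraries. Skeletal muscle markers (10 of 10 with counts) ran from 290 to 4080 CPM in wild-type and 55.8 to 238 CPM in ΔAgo2 tumors, with wild-type tumor 3 highest. Keratinocyte markers (10 of 10) ran from 15.5 to 590 CPM and 465 to 908 CPM, and fibroblast markers (10 of 10) from 4940 to 7270 CPM and 2320 to 4670 CPM. Leukocyte markers (10 of 10) ran from 801 to 1420 CPM and 998 to 1450 CPM, and endothelial markers (8 of 8) from 124 to 192 CPM and 121 to 161 CPM. The part of these cells in the histone values was not tested.

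The second comparison asked whether the histone genes differed between wild-type and ΔAgo2 tumors. Summed member levels were 318 ± 181 CPM (SD, n = 4) in wild-type and 239 ± 69.8 CPM (SD, n = 4) in ΔAgo2 tumors, a ratio of 0.751, and the means differed by less than the SD of the wild-type group. Without wild-type tumor 4 the ratio was 1.04. Enough counts for a test were found for 49 members, and none passed an adjusted p of 0.05 in edgeR's quasi-likelihood test, whereas 560 of the 16061 genes tested did (3.49% of all genes, 1.36% higher and 2.12% lower in ΔAgo2). At an unadjusted p under 0.05 there was 1 of 49 members, against 26.7% of all genes. The groups did not overlap in 1 of 49 members, against 16.4% of all genes. DESeq2 called 0 members (13.1% of all genes), and limma voom with sample weights called 4 (27.9% of all genes).

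Among the 49 members tested, 37 had a log2 fold change below 0 and 12 above, and 47.5% of all genes tested were below 0. The median was -0.56 over members and 0.04 over all genes. It was -0.45 for 14 members with the hexamer and -0.58 for 35 without it. The median depended on which libraries were in the fit: without wild-type tumor 4 the median over members was 0.04 and 22 of 50 members were below 0, and without ΔAgo2 tumor 1 the median was -1.10. Leaving out both gave -0.48, and leaving out wild-type tumor 2 as well gave -0.03 with 28 of 50 members below 0. With the GC trend removed it was -0.20 (30 of 49 below 0), at -0.35 for members with the hexamer and -0.03 for those without it. With the length trend removed it was -0.83, at -0.56 and -1.05 for the same 2 sets. With limma voom it was -0.04 (27 of 49 below 0), and after thinning -0.24 over the 15 members that could then be tested (12 below 0). Members not tested, 18 in all, are described by their levels only.

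**Figure D4:**
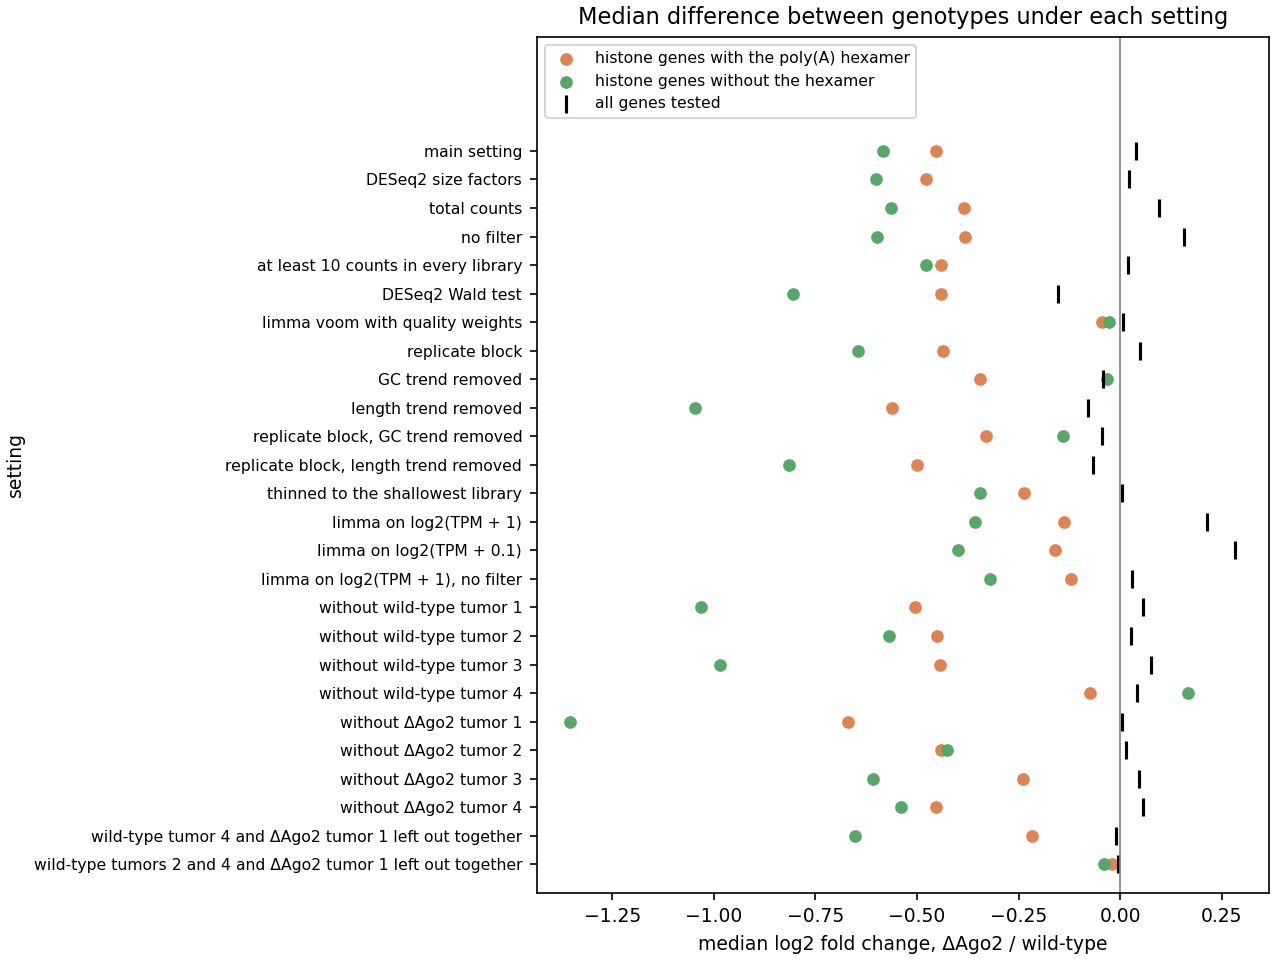
Median log2 fold change (ΔAgo2 over wild-type) under each processing setting, for members with the poly(A) hexamer (orange), members without it (green) and all genes tested (black marks). The member medians lie below 0 in most settings (-0.45 and -0.58 in the main one) and move to -0.07 and 0.17 when wild-type tumor 4 is left out.

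Linker histones H1 bind DNA where it enters and leaves the nucleosome. The 4 H1 members tested all had log2 fold changes below 0, with a median of -1.002 and none past the threshold. Hist1h1c (ENSMUSG00000036181.2, chr13:23738808-23740367, 1 exon) had 121, 170, 121 and 345 CPM in the wild-type group (tumors 1 to 4), and 160, 99.7, 111 and 148 CPM in ΔAgo2 tumors. The groups overlapped, and only wild-type tumors 2 and 4 were above every ΔAgo2 tumor. The log2 fold change was -0.55 ± 0.34 (SE, adjusted p = 0.318, edgeR). Hist1h1e had 0.843, 3.72, 1.22 and 12.2 CPM in wild-type tumors and 4.33, 0.395, 0.985 and 1.13 CPM in ΔAgo2 tumors, with a log2 fold change of -1.32 ± 0.90 (SE). Wild-type tumors 2 and 4 and ΔAgo2 tumor 1 again stood above the other 5 libraries. Hist1h1b ranged from 0.262 to 4.87 CPM in wild-type and from 0.316 to 1.74 CPM in ΔAgo2 tumors. Hist1h1t, the H1 gene of male germ cells, had a mean of 0.119 TPM and was not tested.

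H2A and H2B form the dimers at the faces of the nucleosome. The 11 H2A members tested had a median log2 fold change of -0.36, from -1.25 in Hist1h2ag to 0.84 in Hist1h2af, and the 11 H2B members a median of -0.65, from -1.42 in Hist1h2bm to 0.41 in Hist1h2bg. The most abundant H2A members per length were Hist1h2ak at 5.46 TPM, Hist1h2ai at 5.03 TPM and Hist1h2ae at 4.82 TPM. Hist1h2ai stayed between 0.482 and 1.09 CPM in all 8 libraries, with a log2 fold change of 0.10 ± 0.39 (SE, adjusted p = 0.891, edgeR). Its coding sequence shares 82.0% of its 100-base stretches with other members. Hist1h2ak ranged from 0.206 to 2.87 CPM in wild-type and from 0.219 to 1.37 CPM in ΔAgo2 tumors, and Hist1h2ae from 0.955 to 2.29 CPM and from 0.658 to 1.89 CPM.

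Hist1h2bc and Hist2h2be were the most abundant H2B members. Hist1h2bc (ENSMUSG00000018102.5, chr13:23684199-23692908) had 40.8, 26.1, 40.4 and 61.2 CPM in the wild-type group (tumors 1 to 4), and 82.8, 36.2, 33.9 and 50.3 CPM in ΔAgo2 tumors. It was highest in ΔAgo2 tumor 1 and lowest in wild-type tumor 2, and the groups overlapped (log2 fold change 0.28 ± 0.33, SE, adjusted p = 0.610, edgeR). Hist2h2be (ENSMUSG00000068854.7, chr3:96221119-96223738) had 11.03, 15.6, 12.4 and 13.9 CPM in wild-type and 12.2, 17.0, 10.98 and 14.7 CPM in ΔAgo2 tumors. The groups overlapped, no library stood apart, and the log2 fold change was 0.06 ± 0.23 (SE). In both genes no stem-loop was found in the annotated 3′UTR and AATAAA was present.

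Hist1h2be was the member whose groups did not overlap, and it was named after its values were seen. It had 2.15, 1.72, 2.395 and 4.01 CPM in wild-type tumors and 1.64, 1.70, 1.52 and 1.35 CPM in ΔAgo2 tumors, so that the lowest wild-type value was just above the highest ΔAgo2 value. Its log2 fold change was -0.69 ± 0.34 (SE, adjusted p = 0.217, edgeR), and limma voom gave an adjusted p of 0.0334. Its annotated span overlaps Hist1h1e on the same strand, so reads from the overlap may be counted for either gene or for none.

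Hist2h2aa2 had the smallest unadjusted p among members (0.0227) and was likewise named after its values were seen. It had 0.506, 0.143, 0.420 and 0.430 CPM in wild-type and 0.144, 0.132, 0.179 and 0.189 CPM in ΔAgo2 tumors, with wild-type tumor 2 inside the ΔAgo2 range. The log2 fold change was -1.23 ± 0.46 (SE, adjusted p = 0.132, edgeR), and voom gave an adjusted p of 0.017. All of its 100-base stretches occur in another member, and its near copy Hist2h2aa1 had no counts. The other members that voom called, Hist1h2bg and Hist1h3g, had edgeR log2 fold changes of 0.41 and 0.13 and voom values of 1.26 and 1.14.

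H3 and H4 form the tetramer at the centre of the nucleosome. The 11 H3 members tested had a median log2 fold change of -0.20, and the 12 H4 members -0.74, with 11 of the 12 below 0. Hist1h3c, the most abundant H3 member per length at 8.43 TPM, had 0.993, 3.48, 0.735 and 7.74 CPM in the wild-type group (tumors 1 to 4), and 2.26, 0.421, 0.985 and 0.714 CPM in ΔAgo2 tumors. Its highest values were in wild-type tumors 4 and 2 and ΔAgo2 tumor 1 (log2 fold change -1.50 ± 0.77, SE, adjusted p = 0.232, edgeR). Hist1h3e and Hist1h3g had log2 fold changes of -0.01 ± 0.51 and 0.13 ± 0.62 (SE), and ranged from 0.714 to 2.65 CPM and from 0.252 to 2.15 CPM over the 8 libraries.

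Hist1h4i (ENSMUSG00000060639.5, chr13:22040636-22041362, 1 exon) was the most abundant H4 member. It had 3.56, 1.81, 4.68 and 12.5 CPM in wild-type and 8.10, 3.25, 4.00 and 4.96 CPM in ΔAgo2 tumors. Unlike most members it was lowest in wild-type tumor 2, and the groups overlapped (log2 fold change -0.10 ± 0.53, SE, adjusted p = 0.918, edgeR). Hist1h4h had 1.05, 1.53, 1.05 and 6.45 CPM in wild-type and 2.52, 0.552, 1.07 and 1.29 CPM in ΔAgo2 tumors. Its wild-type mean thus rested on tumor 4, and the log2 fold change of -0.79 ± 0.67 (SE) became 0.19 without that tumor. Hist1h4k ranged from 0.356 to 3.15 CPM in wild-type and from 0.627 to 1.19 CPM in ΔAgo2 tumors.

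Hist1h4d and Hist1h2af had the lowest and highest log2 fold changes of the members and were named after their values were seen. Hist1h4d had 0.656, 3.91, 0.903 and 18.5 CPM in wild-type tumors and 3.28, 0.246, 0.776 and 0.584 CPM in ΔAgo2 tumors. Between wild-type tumors 1 and 4 it differed more than between the genotype means, and its log2 fold change was -2.24 ± 1.08 (SE, adjusted p = 0.211, edgeR). Hist1h2af had 0.169, 0.238, 0.147 and 0.716 CPM in wild-type and 1.01, 0.289, 0.149 and 0.339 CPM in ΔAgo2 tumors (0.84 ± 0.71, SE, adjusted p = 0.452, edgeR).

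**Figure D5:**
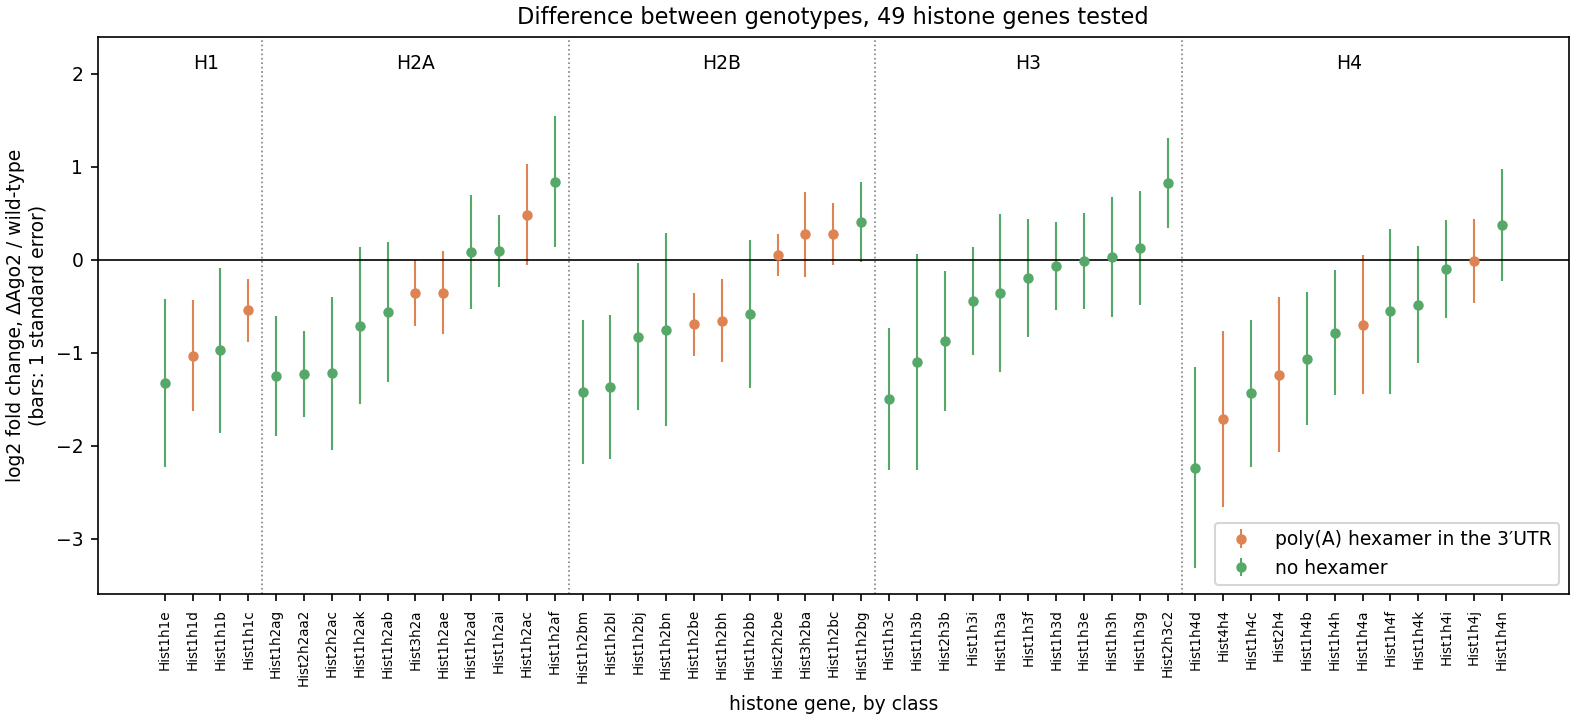
Log2 fold change (ΔAgo2 over wild-type) with 1 standard error for the 49 histone genes tested, sorted within class; orange genes have the poly(A) hexamer in the 3′UTR and green genes do not. Values run from -2.24 (Hist1h4d) to 0.84 (Hist1h2af), and none passed an adjusted p of 0.05.

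Genes that make and remove histone mRNA were compared next. Of 16 such genes tested, 0 passed the threshold (edgeR), against 3.49% of all genes tested. An unadjusted p under 0.05 was found for 6 of the 16, against 26.7% of all genes. Their median log2 fold change was 0.29. Slbp, which codes for the stem-loop binding protein, had 45.2, 36.8, 46.4 and 45.4 CPM in wild-type and 57.4, 58.7, 49.9 and 51.7 CPM in ΔAgo2 tumors. The groups did not overlap, as in 16.4% of all genes tested. The log2 fold change of 0.33 ± 0.17 (SE, adjusted p = 0.247, edgeR) did not pass. It was -0.17 with the GC trend removed. Npat, the coactivator of histone gene transcription, ranged from 5.44 to 16.4 CPM in wild-type and from 10.2 to 36.7 CPM in ΔAgo2 tumors (1.01 ± 0.43, SE, adjusted p = 0.170). Casp8ap2, whose product FLASH acts in histone pre-mRNA processing, ranged from 4.87 to 13.1 CPM and from 10.2 to 27.3 CPM (0.92 ± 0.39, SE, adjusted p = 0.161). Lsm11, a subunit of the U7 particle that guides the cut, ranged from 21.2 to 32.4 CPM and from 16.8 to 18.4 CPM, with groups that did not overlap (-0.62 ± 0.20, SE, adjusted p = 0.103). Npat and Casp8ap2 were lowest in wild-type tumors 2 and 4, the wild-type tumors in which the histone sum was highest. These were also the libraries with the highest GC trends (1.34 and 1.77), and the part of that trend was not tested.

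Among replication-independent histone genes, 1 of 11 passed the test, against 3.49% of all genes tested. It was lower in ΔAgo2. This was H1fx, a linker histone variant gene, with 5.64, 15.5, 5.71 and 27.1 CPM in wild-type and 4.55, 1.02, 1.70 and 1.43 CPM in ΔAgo2 tumors. Its wild-type values were highest in the same tumors, 2 and 4, as those of most members, and within ΔAgo2 tumor 1 was highest (-2.62 ± 0.62, SE, adjusted p = 0.0476, edgeR). The call was lost when any 1 of wild-type tumors 2 and 4 and ΔAgo2 tumors 2, 3 and 4 was left out (adjusted p = 0.111 to 0.161). The list's median log2 fold change was -0.08.

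No S phase gene of 28 passed the test (edgeR), and 5 had an unadjusted p under 0.05, against 26.7% of all genes. The list's median log2 fold change was 0.13. Of 20 G2 and mitosis genes, 3 rose in ΔAgo2 tumors and none fell, against 1.36% higher and 2.12% lower among all genes tested, and 13 had an unadjusted p under 0.05, against 26.7% of all genes. The list had a median log2 fold change of 0.71, with sums of 1570 ± 135 CPM and 2334 ± 117 CPM (SD, n = 4 each) that did not overlap. Nusap1, a spindle microtubule protein gene, rose by 1.46 ± 0.28 (log2, SE, adjusted p = 0.0225), Kif11, a mitotic kinesin gene, by 1.20 ± 0.23 (adjusted p = 0.0242) and Ccnb2, the gene for a mitotic cyclin, by 0.84 ± 0.18 (adjusted p = 0.0358). With the GC trend removed Kif11 had a log2 fold change of 0.54 (adjusted p = 0.0979), and each of the 3 calls was lost when 1 of several single libraries was left out. The direction in these genes was not that of the histone median, and the difference between the lists was not tested. Of the 3 other RNAs without a poly(A) tail that could be tested, 0 passed (edgeR; 1 had an unadjusted p under 0.05), with a median log2 fold change of -2.11.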

How the data were processed

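The authors deposited whole-number read counts per gene for each library, without normalization, and TPM values, which divide counts by gene length and scale each library to the same total. Per the labels, reads were aligned with STAR to mm10. The study's methods, written for cultured cells, name a ribosomal RNA filter and featureCounts. Annotation release, strand and treatment of multi-mapping reads were not given in the sources used here. Of the identifiers, 99.29% matched GENCODE M21 (GRCm38), which gave gene models, GC content and sequences. RefSeq promoters were matched for 61 of 67 members.

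The counts were tested with edgeR 4.0.16 in R 4.3.3, using filterByExpr, TMM scaling and the quasi-likelihood test on genotype over all genes, with no covariate and Benjamini-Hochberg adjustment at 0.05 over all genes tested. Summed levels were given per library without a test. Tables were made in Python 3.11.15. Alternatives were other scalings, filters, DESeq2 1.42.0 (Wald test), limma 3.58.1 voom with quality weights, limma on log2-transformed TPM (pseudocount 1 or 0.1, with or without a minimum of 0.5 TPM in 4 libraries), removal of GC or length trends (fitted in each library on genes averaging 50 counts or more), thinning, the replicate number as a block, and leaving out libraries. Low genes are measured less precisely in the shallow libraries. The procedure was tested on simulated counts with the same spread for all genes and planted changes only in genes above a minimum level. That simulation therefore does not cover members at low levels. Named genes were the 3 members of each class with the highest mean TPM among those tested, called members (0), Slbp, Npat, Casp8ap2, Lsm11, Ago2, and up to 3 called genes of each related list. Groups and replicate numbers came from the sample titles. The members, lists and tests were chosen with earlier results of these data known. The split by AATAAA, the level alternatives for GC and length, and the settings that leave out several libraries together were added after seeing the data.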

Additional observations from a re-analysis of the deposited data

Results flagged for a closer look

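In groups of 4 tumors, the highest or lowest value was compared with the rest by the gap to its neighbour over the group's range. Of 74 groups, 6 passed Dixon's critical value for 4 values, and about 3.7 would do so by chance (1 in 20). In wild-type tumor 4, the sum of members with AATAAA was 463 CPM against 184 to 230 CPM in the other wild-type tumors, the H2B sum was 102 CPM against 53.0 to 59.7 CPM, and Hist1h4h was 6.45 CPM against 1.05 to 1.52 CPM. In ΔAgo2 tumor 1, the replication-independent histones summed to 2990 CPM, while the rest of that group lay from 1850 to 2040 CPM, and Hist1h4k was 1.19 CPM against 0.627 to 0.675 CPM. Slbp in wild-type tumor 2 was 36.8 CPM against 45.2 to 46.4 CPM. Wild-type tumor 4 is the shallowest library. The cause of these gaps was not tested.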

How the results depend on the processing

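Replicate numbers did not pair the tumors: same-numbered tumors had deviations that correlated at -0.236, 0.103, -0.0448 and -0.290. With the replicate number as a block, 70 genes and 0 members were called and the member median was -0.61. Of 560 genes called, the count was 983 with no filter, 2265 with DESeq2, 4476 with voom, 1195 with the length trend removed, 310 and 160 with the block and the GC or length trend removed, 153 and 107 with limma on TPM + 1 and TPM + 0.1, 77 on TPM + 1 with no filter, and 1045 without wild-type tumors 2 and 4 and ΔAgo2 tumor 1. Without 1 library it ran from 88 (without ΔAgo2 tumor 4) to 1793 (without ΔAgo2 tumor 1) and moved by over 1.5 times for each library except wild-type tumor 1. Higher genes made up 39.1% of calls, 49.8% with DESeq2 and 53.5% with voom. No member was called except 4 by voom. The summed level ratio ran from 0.652 to 1.04 without 1 library, and was 0.889 with TPM and 0.581 and 0.784 for members without and with AATAAA.

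Directions turned for 10 of 15 named members, none of which was past the threshold before, and for Slbp. With the GC trend removed, and with the block in addition, log2 fold changes were 0.17 and 0.085 in Hist1h2ak, -0.094 and -0.12 in Hist1h2bc, -0.41 and -0.36 in Hist2h2be, 0.11 and 0.077 in Hist1h3e, 0.46 and 0.57 in Hist1h4k, and -0.17 and -0.14 in Slbp. Hist1h4i was 0.13 with the block, and 0.21 and 0.002 with the block and the GC or length trend removed. With the length trend removed, Hist1h2ai was -0.20 (-0.19 with the block) and Hist1h3g -0.06. With voom, Hist1h1b was 0.24, Hist1h4i 0.27 and Hist1h4k 0.42. Hist1h3e was 0.014 with total counts, 0.047 with no filter and 0.008 with 10 counts in every library. With limma on TPM + 1, filtered or not, Hist1h3e was 0.12 and Hist1h4i 0.305, and on TPM + 0.1 they were 0.16 and 0.33, with Hist1h4k at 0.002. Hist2h2be was -0.038 after thinning. Without wild-type tumor 4 and ΔAgo2 tumor 1, Hist1h2ai was -0.15, Hist1h4i 0.26 and Hist1h4k 0.12. Without wild-type tumor 2 as well, Hist1h1b was 0.48, Hist1h2ak 0.011, Hist1h2bc -0.015, Hist1h3e 0.28 and Hist1h4k 0.48. Leaving out 1 library gave -1.72 to 0.28 for Hist1h1b, -1.50 to 0.19 for Hist1h2ak, -0.17 to 0.24 for Hist1h2ai, -0.068 to 0.52 for Hist1h2bc, -0.073 to 0.15 for Hist2h2be, -0.48 to 0.28 for Hist1h3e, -0.22 to 0.81 for Hist1h3g, -1.26 to 0.19 for Hist1h4h, -0.42 to 0.61 for Hist1h4i and -0.84 to 0.40 for Hist1h4k. The cause was not tested.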
